A study of Mus musculus with 43 samples.

Results

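Chromatin accessibility was compared on day 11 (D11) between irradiated mouse intestinal organoids that had received a pulse of TGFB1 and irradiated organoids that had received vehicle, in 3 ATAC-seq libraries per group. These 6 libraries belong to the 18 ATAC-seq libraries of a series of 43 samples. The peak lists of the 6 libraries were merged on chromosomes 1 to 19 into 54977 regions. A region was called gained when all 3 TGFB1 libraries and none of the 3 vehicle libraries had a peak in it, and lost in the reverse case. By this rule 674 regions were gained and 1563 were lost.

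Both groups were primary organoids from wild-type C57BL/6 intestine, and both were exposed to 4 Gy on day 4. Vehicle or TGFB1 at 2 ng/mL was present for 24 h from day 6, and the D11 libraries carry the later day in their titles, so they were taken some days after the pulse ended. No D11 group without irradiation was analysed here, so every D11 value is a value after irradiation. Each ATAC-seq library was made from 30000 dissociated cells. The labels do not say whether the replicates came from separate animals or cultures, and p-values therefore measure only the spread between these libraries. Earlier libraries of the same series were used as data outside the rule: 12 ATAC-seq libraries on day 7 (D7), with or without the 4 Gy exposure (IR or non-IR) and with vehicle or TGFB1, and the 6 bulk RNA-seq libraries of D11 organoids with the same treatments.

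ATAC-seq marks DNA that a transposase can reach, which is mostly promoters, enhancers and other regulatory elements that transcription factors keep free of nucleosomes. TGFB1 is a secreted cytokine whose receptors phosphorylate SMAD proteins, which enter the nucleus and act at regulatory elements together with other factors, among them AP-1, RUNX and the TEAD partners of YAP. In the intestinal epithelium the accessible elements are largely held open by identity factors such as CDX2, HNF4A and GATA4, while injury brings in a regenerative programme marked by Clu and dependent on YAP. Accessible sites can outlast the signal that opened them, which gives a late time point its interest.

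The peak lists held 40513, 48078 and 29956 peaks in vehicle replicates 1, 2 and 3 and 31982, 37184 and 28523 peaks in TGFB1 replicates 1, 2 and 3. The groups overlapped, since vehicle replicate 3 lay below 2 of the 3 TGFB1 libraries. Means were 39516 ± 9102 peaks for vehicle and 32563 ± 4359.6 for TGFB1 (SD, n = 3), and the difference of -6953 peaks did not exceed the spread between replicates (two-sided exact permutation p = 0.3, smallest possible 0.1). The authors' score of a peak is the −log10 of its q value. The weakest peaks, with a score under 5, made up 12.8, 26.1 and 13.7% of the vehicle lists and 14.1, 20.5 and 28.6% of the TGFB1 lists, so the lists also differed in how many weak peaks they held. Sequencing depth is not known from these lists. A missing peak means that no peak passed the authors' threshold there, not that the chromatin was closed. In bulk material, fewer cells of a type with an open site and less opening per cell cannot be told apart.

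On average, libraries of a group shared more of their peaks with each other than with the other group. The Jaccard index, the share of base pairs common to a pair of lists among those covered by either, was 0.514 to 0.608 within groups and 0.424 to 0.566 between groups. These ranges overlapped. The mean within groups exceeded the mean between groups by 0.0545 (one-sided exact permutation p = 0.1, which is the smallest this design allows).

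Gained and lost regions were the rare ends of a broad distribution. Gained regions made up 1.23% of all regions and lost regions 2.84%, while 19377 regions (35.2%) had a peak in all 6 libraries. Single-library regions were common: 4250 had a peak in 1 TGFB1 library only and 8600 in 1 vehicle library only. Next to the gained regions lay 1156 regions in 2 TGFB1 and no vehicle libraries, and 702 in all 3 TGFB1 and 1 vehicle library. Next to the lost regions lay 3834 regions in 2 vehicle and no TGFB1 libraries, and 2068 in all 3 vehicle and 1 TGFB1 library. In 3258 of those 3834 regions, vehicle replicate 3, the shortest vehicle list, was the one without a peak. In 425 of the 702 regions, vehicle replicate 2, the longest list, was the one with a peak.

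**Figure D1:**
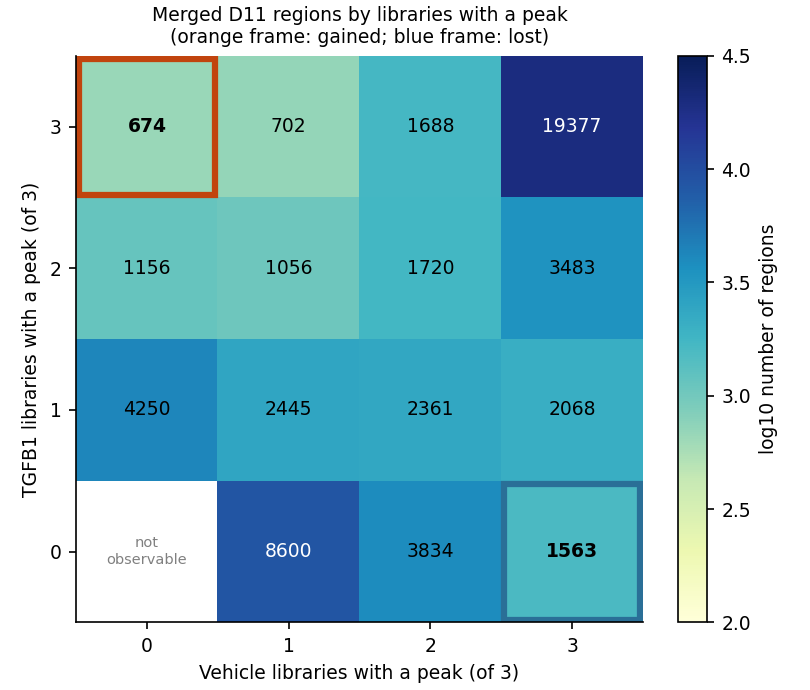
Number of merged D11 regions for each combination of TGFB1 libraries (vertical axis, 0 to 3) and vehicle libraries (horizontal axis, 0 to 3) with a peak. Colour gives the log10 of the number, and the frames mark the 674 gained and the 1563 lost regions, beside the 19377 regions of all 6 libraries in the upper right cell.

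The excess of lost over gained regions depended on which peaks and lists were used. When each list was reduced to its 28523 highest-scoring peaks, 1110 regions were gained (2.65%) and 1113 were lost (2.65%). Both groups then hold the same number of peaks, which by itself draws these counts together. Of the members as first called, 386 of the 674 gained and 625 of the 1563 lost regions overlapped a region with the same call at equal list lengths. With peaks of a score of at least 5 only, 480 regions were gained and 1570 lost, a higher lost to gained ratio of 3.27. Without vehicle replicate 3, 4828 regions were lost (8.83% of regions) and 724 were gained (1.32%). Without TGFB1 replicate 2, 2733 were lost, and gained regions rose to between 1100 and 1178 without TGFB1 replicate 1, TGFB1 replicate 3 or vehicle replicate 2. Leaving out a library eases the rule, since fewer lists must agree. Both counts rose whichever library was left out, so a rise by itself is not a result. The part of list length in the lost to gained ratio of 2.32 was not tested beyond these values.

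Most members were weak peaks. The median percentile of a gained region's score within its own list was 22.9, 33.9 and 33.8 in TGFB1 replicates 1, 2 and 3. For lost regions it was 36.5, 43.8 and 21.0 in vehicle replicates 1, 2 and 3. Regions of all 6 libraries had medians of 64.6 to 79.4 in the 6 lists, above both kinds of member in every list. The rule favours this order, since shared regions passed the threshold in all 6 lists and members failed it in 3. Only 39 of the 674 gained and 43 of the 1563 lost regions were above the median score of all 3 of their lists. The lowest of a region's 3 scores had a median of 4.45 for gained and 5.02 for lost regions and was under 5 in 61.9% and 49.5% of them. That median was little higher, at 4.77, in the 702 regions with 3 TGFB1 libraries and 1 vehicle library. In the 2068 regions with 3 vehicle libraries and 1 TGFB1 library it was 5.49. Just outside the rule, the single vehicle peak of the 702 regions with 3 TGFB1 libraries had a median score of 4.98, and the single TGFB1 peak of the 2068 regions with 3 vehicle libraries one of 5.37, so members and near members were separated by peaks close to the lower end of the lists.

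**Figure D2:**
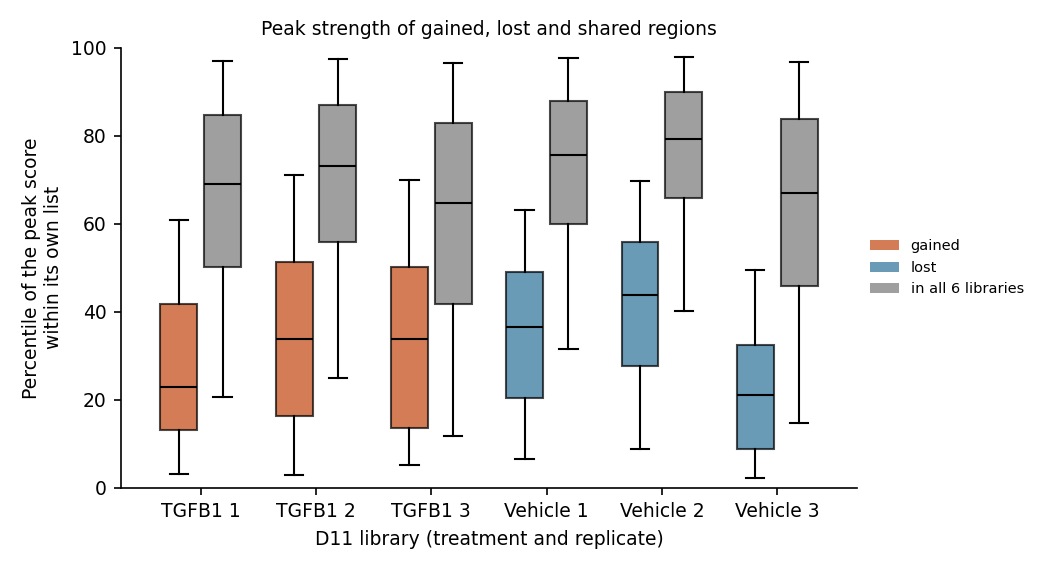
Percentile of the peak score within its own list (vertical axis, 0 to 100) for gained regions in the 3 TGFB1 libraries, lost regions in the 3 vehicle libraries and regions of all 6 libraries in each list. Boxes show the quartiles with the median as a line and whiskers the 5th and 95th percentiles; the median of the shared regions lies above that of the members in all 6 lists.

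A few gained regions were strong. Coordinates are those of the files and counted from 1; the build is not stated for this assay, but of the builds in the submitters' processing notes (mm9, GRCm39 and mm39) only mm9 has a chromosome 1 long enough for the last peak, which ended at 197105750. No annotation of that build was used here, so regions are given by position without a gene. The region with the highest lowest percentile, chr1:21489760-21490410 (651 bp), had scores of 27.2, 30.5 and 22.7 in TGFB1 replicates 1, 2 and 3. No score of it fell below the 85.4th percentile of its list. On D7 it had a peak in 3 of 3 irradiated TGFB1 libraries, 2 of 3 non-irradiated TGFB1 libraries and none of the 6 vehicle libraries. It was thus seen with TGFB1 and not with vehicle in all 3 settings.

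The next gained region by this measure, chr17:4769083-4769709, had scores of 22.7, 32.9 and 19.4 and a D7 peak in 1 non-irradiated TGFB1 library alone. The third, chr1:140244969-140245600, had scores of 20.9, 27.5 and 15.1 and no peak in any D7 library. Both were therefore strong on D11 while mostly or wholly without a peak at the end of the pulse. The fifth, chr4:111768355-111768988, with scores of 16.7, 26.8 and 19.8, also had no D7 peak. The fourth, chr4:3949816-3950539, scored 17.6, 18.6 and 11.7 and had a peak in 1 irradiated and 1 non-irradiated TGFB1 library on D7. The remaining 3 of the 8 were chr8:77396193-77396839 (15.9, 23.8 and 11.8), chr4:66489596-66490252 (17.6, 13.3 and 13.1) and chr11:19121323-19122024, whose 3 scores had a mean of 15.2 ± 4.18 (SD, n = 3). None of these 3 had a peak in a D7 library. In all, 5 of these 8 strong gained regions were without a D7 peak, and none of the 8 had a peak in a D7 vehicle library. Over all 674 gained regions, 40.9% were without a D7 peak and 88.1% without a peak in any D7 vehicle library. Among all gained regions, those with D7 peaks were the stronger. The median lowest percentile was 19.6 with a peak in at least 3 D7 TGFB1 libraries and 13.7 with none.

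The strongest lost regions were taken by the same measure. The first, chr10:95106548-95107176 (629 bp), had scores of 28.5, 27.4 and 17.5 in vehicle replicates 1, 2 and 3, and a peak in all 12 D7 libraries. Its peak was absent from the TGFB1 libraries on D11 only. The region chr10:99119388-99120021, with scores of 25.4, 17.4 and 16.9, had a D7 peak in 3 of 3 non-irradiated vehicle libraries, in none of the irradiated vehicle libraries and in 1 library of each TGFB1 group. The third, chr15:82494686-82495340, scored 20.1, 13.8 and 15.6. The fourth, chr11:99322925-99323550, had a mean score of 18.9 ± 3.35 (SD, n = 3). The others were chr5:93166902-93167554 (21.7, 14.1 and 14.9), chr19:4059258-4059892 (26.1, 24.7 and 14.9), chr9:60183902-60184547 (16.0, 19.2 and 15.7) and chr3:93667562-93668224 (16.2, 12.2 and 18.5). All 8 had a D7 peak in at least 2 of the 3 non-irradiated vehicle libraries, 7 of them in all 3. A peak in all 3 was found for 24.1% of all lost regions and 36.4% of all D11 regions. Stronger lost regions were also those with more D7 peaks: the median lowest percentile was 23.4 in the 457 with a peak in at least 3 of the 6 D7 TGFB1 libraries and 9.84 in the 339 with none. In 7 of the 8 at least 1 irradiated vehicle library on D7 had it as well.

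Gained regions lay far from shared regions. The median distance from a gained region to the nearest region of all 6 libraries was 40.0 kb, against 14.2 kb for a lost region and 19.1 kb over all regions. Regions with a peak in 3 libraries drawn from both groups, which were seen as often as members were, had a median of 17.9 kb. More than 100 kb separated 27.6% of gained regions from the nearest shared region, against 7.74% of lost regions and 11.4% of all regions. Within 10 kb lay 20.5% of gained, 40.6% of lost and 32.6% of all regions. The order of the medians was the same with equal numbers of peaks (40.7 kb for gained and 15.0 kb for lost) and among the stronger members, those above the median of their kind (44.5 and 13.6 kb). Without each library in turn the medians ran from 31.7 to 42.0 kb for gained and from 12.6 to 14.7 kb for lost regions. Region widths had medians of 671.5 bp for gained, 661 bp for lost and 661 bp for all regions.

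**Figure D3:**
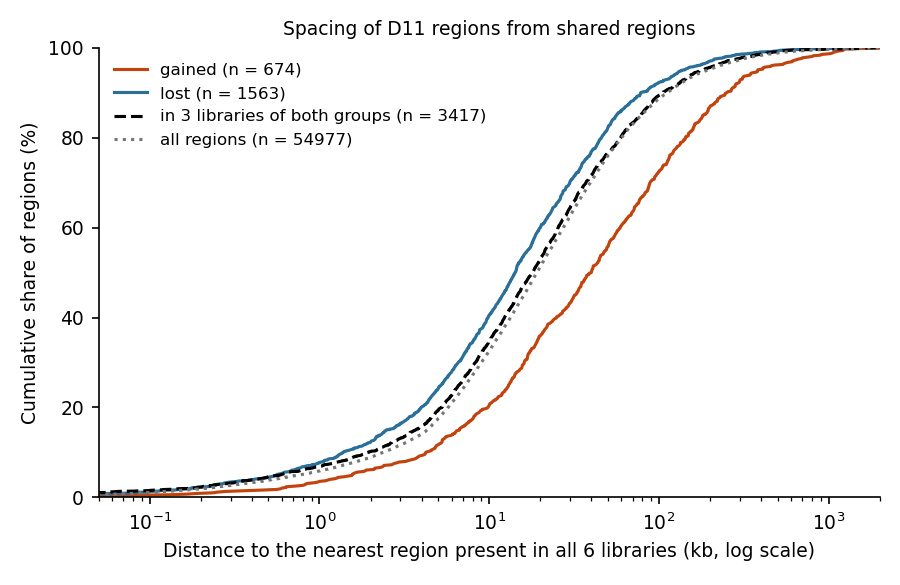
Cumulative share of regions (vertical axis, percent) within a given distance of the nearest region present in all 6 D11 libraries (horizontal axis, kb, log scale). The curve of the gained regions (median 40.0 kb) runs to the right of the curves of all regions (19.1 kb) and of regions in 3 libraries of both groups (17.9 kb), and that of the lost regions (14.2 kb) to their left.

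Members were found on every autosome. The share of regions gained ran from 0.786% on chromosome 7 to 1.86% on chromosome 18, and the share lost from 2.34% on chromosome 2 to 4.18% on chromosome 19. The share lost exceeded the share gained on 19 of 19 chromosomes. All chromosomes come from the same peak lists, so they are not replicates, and this count adds no support to the excess over all regions. With lists of equal length that excess was not seen (1110 gained and 1113 lost regions). Equal length by itself draws these counts together.

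Members of a kind tended to follow each other along the chromosome. The next region after a gained one was also gained in 30 of 674 cases (4.45%, against 1.22% over all regions) and was lost in 6 (0.890%, against 2.84%). The next region after a lost one was also lost in 66 of 1563 cases (4.22%, against 2.84%) and gained in 12 (0.768%, against 1.22%). With steps of at most 50 kb, 75 gained regions (11.1%) stood in 36 groups of at least 2, and 376 lost regions (24.1%) in 173 such groups. These shares are not comparable between the kinds, since lost regions were more numerous and lay in denser stretches.

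The gained group with the most regions held 4 of them within 49.2 kb at chr8:77396193-77445408. Its outer regions were the stronger ones, with scores of 15.9, 23.8 and 11.8 at one end and 12.4, 16.3 and 11.6 at the other in TGFB1 replicates 1, 2 and 3. The inner ones had scores of 4.28, 8.58 and 3.40, and of 5.24, 7.67 and 4.20. No region of all 6 libraries lay among them, and 3 of the 4 had no peak in any D7 library. The lost group with the most regions held 5 within 71.7 kb at chr13:101291576-101363259, interspersed with 5 regions of all 6 libraries. Its strongest score was 17.3, in vehicle replicate 1, and its weakest 3.15, in vehicle replicate 3. On D7, chr13:101351545-101352634 had no peak in any library. The regions chr13:101315360-101316028 and chr13:101362436-101363259 had a D7 peak in 1 library each. The remaining regions of the group had peaks in at least 2 libraries of each D7 vehicle group. Peaks of this group were thus absent with TGFB1 on D11, while others nearby were found in all 6 D11 libraries.

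On D7, which the rule did not use, gained regions had peaks mainly in TGFB1 libraries. In irradiated organoids, 3.41, 3.41 and 3.56% of the 674 gained regions had a peak in vehicle replicates 1, 2 and 3, and 23.1, 11.3 and 8.16% in TGFB1 replicates 1, 2 and 3. In non-irradiated organoids the shares were 2.37, 1.19 and 2.67% with vehicle and 41.5, 21.5 and 17.4% with TGFB1. The groups did not overlap in either setting. Over all D11 regions the D7 shares were 38.1 to 41.3% (IR vehicle), 34.1 to 45.2% (IR TGFB1), 45.9 to 48.8% (non-IR vehicle) and 47.1 to 61.8% (non-IR TGFB1). TGFB1 replicate 1 had the most peaks of its D7 group in both settings (27368 and 38299) and also the highest share of gained regions. With each D7 list reduced to its 19907 highest-scoring peaks and the D11 regions kept as called, mean shares of gained regions were 1.68% and 9.45% (IR vehicle and TGFB1) and 0.445% and 5.93% (non-IR vehicle and TGFB1). TGFB1 stayed above vehicle within each setting, whereas the order of the TGFB1 groups reversed, from means of 14.2% (IR) and 26.8% (non-IR) in the full lists.

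Few gained regions were gained on both days. All 3 TGFB1 and no vehicle libraries had the peak on D7 for 18 of the 674 gained regions in irradiated organoids (2.67%, against 0.817% of all D11 regions) and for 50 in non-irradiated organoids (7.42%, against 1.43%). A peak in none of the 12 D7 libraries was found for 276 gained regions (40.9%, against 22.2% of all regions and 7.68% of lost regions). The 293 gained regions without a peak in any D7 TGFB1 library had a median distance of 58.4 kb to the nearest shared region, and the 134 with a peak in at least 3 of the 6 had one of 26.6 kb. Their lowest scores had medians of 4.24 and 4.81.

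Read in the other direction, most regions gained on D7 were not called gained by this rule on D11. In regions merged from all 18 lists, 450 were gained on D7 in irradiated organoids. Of these, 17 (3.78%) were gained on D11, 205 (45.6%) had a peak in all 6 D11 libraries and 6 (1.33%) in none. Of 804 gained on D7 in non-irradiated organoids, 49 (6.09%) were gained on D11, 149 (18.5%) had a peak in all 6 D11 libraries and 24 (2.99%) in none. The background over the 59945 regions of the 18 lists was 1.12% gained, 32.3% in all 6 D11 libraries and 9.14% in none. The irradiated set thus lay above this background for regions of all 6 libraries and the non-irradiated set below it. More TGFB1 than vehicle D11 libraries had the peak in 22.2% (IR) and 36.1% (non-IR) of regions gained on D7, against 15.7% of all. Fewer TGFB1 than vehicle libraries had it in 24.9% (IR) and 29.2% (non-IR), against 36.0% of all. The D11 lists were also longer than most D7 lists.

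**Figure D4:**
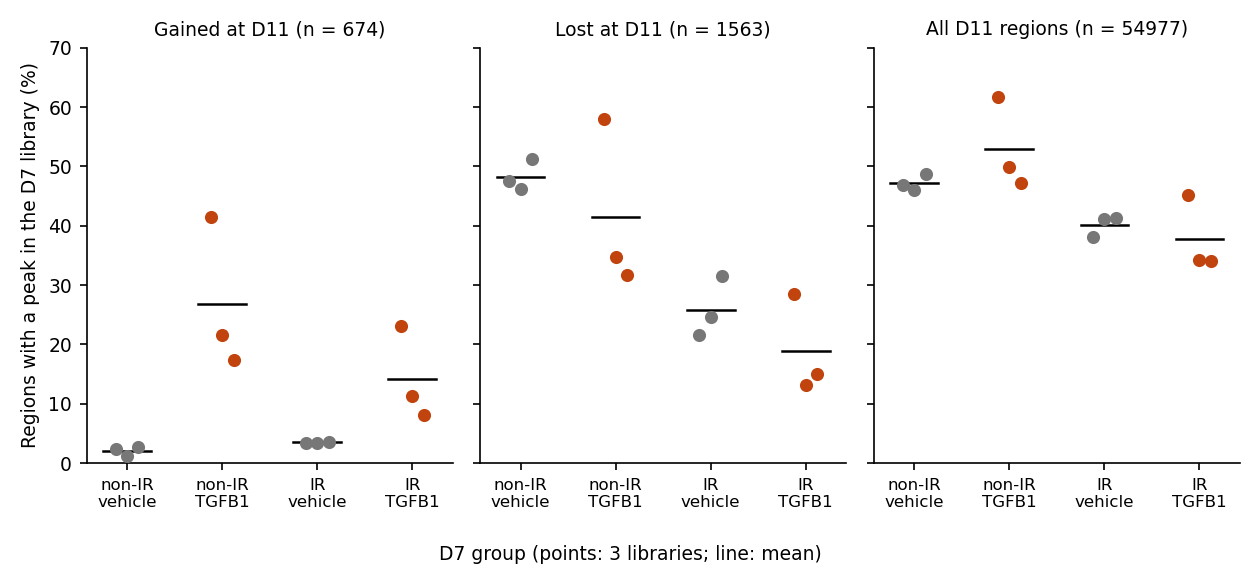
Share of regions with a peak in each D7 library (vertical axis, percent) for regions gained on D11, lost on D11 and all D11 regions, by D7 group. Points are the 3 libraries of a group and lines their mean; for the gained regions all TGFB1 points (8.16 to 41.5%) lie above all vehicle points (1.19 to 3.56%).

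Lost regions were more often found in non-irradiated than in irradiated vehicle organoids on D7. Of the 1563 lost regions, 47.5, 46.1 and 51.2% had a peak in non-irradiated vehicle replicates 1, 2 and 3, and 21.5, 24.6 and 31.5% in irradiated vehicle replicates 1, 2 and 3. These groups did not overlap. Over all regions the same groups were at 45.9 to 48.8% and 38.1 to 41.3%, a smaller gap. In TGFB1 libraries the shares were 58.0, 34.7 and 31.7% (non-IR) and 28.5, 13.2 and 15.0% (IR), which overlapped those of vehicle in both settings. With the D7 lists reduced to that length the mean shares of lost regions were 22.8% (vehicle) and 10.7% (TGFB1) in non-irradiated organoids and 17.1% (vehicle) and 13.8% (TGFB1) in irradiated organoids. In the full lists these means were 48.3, 41.5, 25.9 and 18.9%, so at equal length the vehicle groups lay closer together and the non-irradiated TGFB1 mean fell below the irradiated one.

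A subset of lost regions had a peak in non-irradiated vehicle organoids on D7 and in irradiated vehicle organoids on D11, but not in irradiated vehicle organoids on D7. Of 855 D11 regions with a peak in all 3 non-irradiated and none of the 3 irradiated vehicle libraries on D7, 103 (12.0%) were lost on D11 and 0 were gained. Another 314 of them (36.7%) had a peak in all 6 D11 libraries. Where all 6 D7 vehicle libraries had the peak, 86 of 14573 regions (0.590%) were lost and 13343 (91.6%) were in all 6 D11 libraries. Where no D7 vehicle library had it, 305 of 19321 regions (1.58%) were lost and 594 (3.07%) gained. The 103 regions made up 6.59% of the lost regions, while that D7 pattern was found in 1.56% of all regions. Regions lost with TGFB1 on D7 were also lost on D11 in 36 cases in irradiated organoids (2.30% of lost regions, against 1.33% of all). In non-irradiated organoids there were 39 such cases (2.50%, against 0.344%). In regions merged from all 18 lists, 38 of 192 lost on D7 in non-irradiated organoids were lost on D11 (19.8%, against 2.57% of all). In irradiated organoids 37 of 740 were (5.00%).

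The same call in all 3 settings was made for 3 regions. Both D7 settings called 1 of the 674 gained regions gained (0.148%, against 0.0728% of all D11 regions). They called 2 of the 1563 lost regions lost (0.128%, against 0.0218%). The region chr4:97775215-97776194 was gained throughout, with D11 scores of 4.06, 5.56 and 4.53 in TGFB1 replicates 1, 2 and 3. The regions chr7:86982009-86982685 and chr10:119435478-119436187 were lost throughout, with D11 scores of 4.80, 14.0 and 6.09 and of 7.43, 7.30 and 5.12 in vehicle replicates 1, 2 and 3. They were weak in most of their lists.

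Among the 19377 regions of all 6 libraries, strength was compared by rank, since scores of different lists are not on a common scale. The percentile rank of the score was higher in every TGFB1 than in every vehicle library in 2438 regions (12.6%) and lower in every one in 2346 (12.1%). Ranks have the same mean in every library, so the balance of the directions is set by the ranking and is not a result. A gap of more than 30 percentiles between the groups was found in 114 regions higher and 52 regions lower with TGFB1. Across the 19377 regions, Spearman correlations of the scores were 0.885 to 0.902 between vehicle libraries and 0.791 to 0.823 between TGFB1 libraries. Between groups they were 0.710 to 0.815, which overlapped the range of the TGFB1 libraries. TGFB1 replicate 1 correlated less with TGFB1 replicate 3 (0.799) than with each vehicle library (0.803 to 0.815). These values are a description over regions that share their libraries. Without TGFB1 replicate 1 the counts rose to 3696 higher and 3861 lower. Fewer libraries have to be separated then, and both counts rose whichever library was left out.

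The largest gap towards TGFB1 was in chr3:8264191-8264853, at percentiles 83.5, 85.0 and 87.0 in TGFB1 and 10.6, 0.689 and 6.37 in vehicle replicates 1, 2 and 3. The region chr12:120636318-120637026 followed, at 81.6, 81.9 and 86.1 against 0.679, 10.9 and 3.26. In chr1:15898546-15899239 the percentiles were 66.2, 61.5 and 61.6 against 1.43, 1.64 and 1.23. These regions were among the weakest shared peaks with vehicle and ranked above the median of shared peaks with TGFB1. The largest gap towards vehicle was in chr5:135565386-135566081, at 10.1, 9.55 and 19.7 in TGFB1 and 83.0, 69.3 and 76.6 in vehicle. The regions chr17:23987699-23988799 (11.9, 19.7 and 1.71 against 71.0, 75.1 and 66.8) and chr19:44099160-44099926 (11.8, 13.8 and 0.699 against 58.1, 66.2 and 70.9) were next. Strong differences thus also occurred where both groups had a peak, outside the gained and lost sets.

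The RNA of factors that act at accessible sites was measured in the D11 RNA-seq libraries, as FPKM deposited by the authors. TGFB1 changed the RNA of 63.9% of the 11479 genes tested (limma on log2(FPKM + 1), Benjamini-Hochberg adjusted p under 0.05), with 32.3% higher and 31.6% lower and a median log2 change of 0.01. AP-1 genes rose in 10 of 13 tested cases and fell in 0 (median log2 change 0.63). Fosl1, a FOS-family subunit, was at 1.03, 1.19 and 1.26 FPKM with vehicle and at 19.6, 17.7 and 17.1 FPKM with TGFB1 (log2 change 3.14 ± 0.10 SE, limma adjusted p = 1.90e-08). Jun, its dimer partner, rose from 20.5 to 62.4 FPKM. Of the TEAD and YAP genes 6 of 8 rose and 1 fell (median 0.97). Tead4, a DNA-binding partner of YAP, was at 2.21, 2.47 and 3.33 FPKM with vehicle and at 17.1, 17.3 and 23.0 FPKM with TGFB1 (log2 change 2.46 ± 0.14 SE, limma adjusted p = 6.01e-07). Vgll3, a TEAD cofactor, rose from 0.144 to 7.47 FPKM. Of the SMAD genes and their partners 9 of 13 rose and 2 fell (median 0.41), with rises of Skil and Runx1 and falls of Tgif2 and Smad1. The feedback inhibitor Smad7 rose from 2.62 to 5.70 FPKM. The groups did not overlap for the genes named so far in this paragraph. Most of them were named for their small adjusted p, so this separation is no further support. Junb, Jund, Tead3 and Smad4 of the same lists were not called, and their groups overlapped.

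Intestinal identity factors changed in both directions, with 9 of 23 higher (39.1%, against 32.3% of all genes) and 11 lower (47.8%, against 31.6%; median log2 change -0.33). Hnf4a fell from 361 to 257 FPKM and Gata4 from 121 to 77.0 FPKM, so both remained abundant. Cdx2 was at 122, 138 and 155 FPKM with vehicle and at 108, 121 and 87.5 FPKM with TGFB1 (log2 change -0.39 ± 0.13 SE, limma adjusted p = 0.0234). That call was lost without vehicle replicate 2 (limma adjusted p = 0.0595), without vehicle replicate 3 (0.0800), without TGFB1 replicate 3 (0.0905) and without the filter on low values (0.0524). Isx, an intestine-specific homeobox factor, was at 0.0355, 0.0366 and 0.185 FPKM with vehicle and at 68.5, 76.7 and 86.3 FPKM with TGFB1 (log2 change 6.17 ± 0.11 SE on the FPKM + 1 scale, limma adjusted p = 8.66e-10). Of 21 other epithelial factors 9 rose (42.9%) and 5 fell (23.8%; median 0.17), and Sox21 and Grhl3 had the largest rises, from 0.240 to 8.16 and from 3.75 to 27.4 FPKM. Of 40 chromatin remodelling and architecture genes 13 rose (32.5%, near the 32.3% of all genes), 8 fell and 19 were not called (median 0.12). Chd3, a helicase of the NuRD complex, rose from 6.86 to 24.8 FPKM. The more abundant NuRD helicase Chd4 was at 85.1 FPKM with vehicle and 82.1 FPKM with TGFB1 (limma adjusted p = 0.541). Smarca4, an ATPase of the BAF remodeller, was at 57.1 and 63.0 FPKM (limma adjusted p = 0.203). Smarca2, another BAF ATPase, fell from 15.0 to 10.3 FPKM (limma adjusted p = 0.000218).

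**Figure D5:**
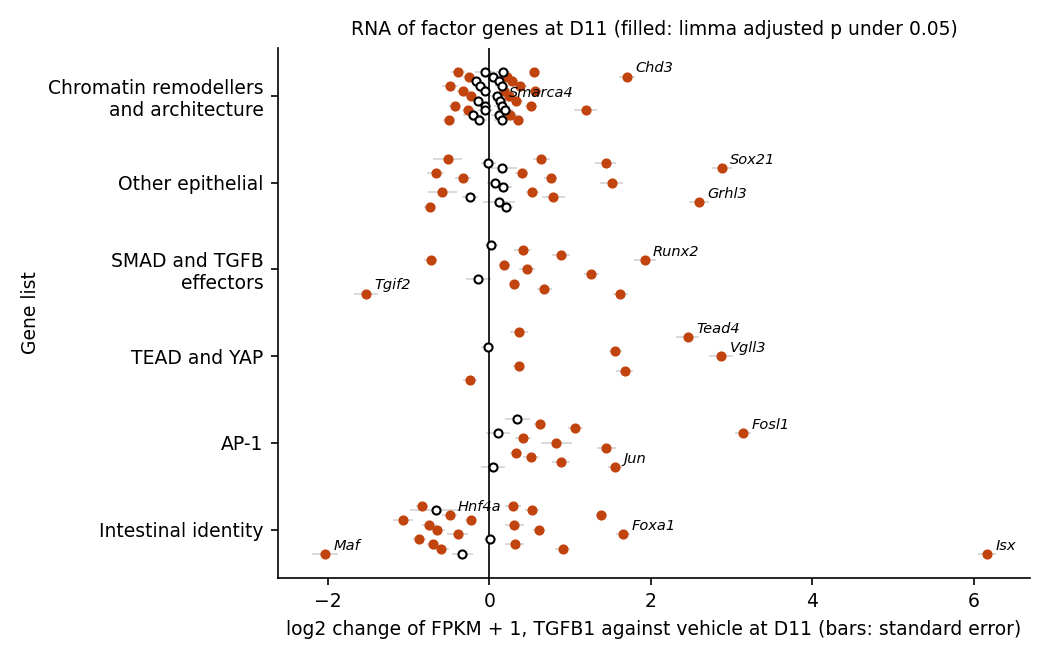
Change of RNA with TGFB1 against vehicle on D11 (horizontal axis, log2 change of FPKM + 1) for the tested genes of 6 factor lists (vertical axis). Points are genes, filled where limma's adjusted p is under 0.05, and bars are standard errors; Isx (6.17) and Fosl1 (3.14) stand farthest to the right and Maf (-2.03) farthest to the left.

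Markers of cell types were read in the matched RNA, where cell number and RNA per cell cannot be told apart. All 6 epithelial markers were above 1 FPKM, and their summed level was 3418 to 3968 FPKM with vehicle and 3769 to 4285 FPKM with TGFB1. Of the 6, 2 were called lower and 0 higher. Epcam was at 669 to 690 FPKM with vehicle and 532 to 630 FPKM with TGFB1. Vil1 was at 211 to 241 and 176 to 184 FPKM, and Krt20 at 37.9 to 65.0 and 32.5 to 37.8 FPKM. Krt8, which with Krt18 made up most of the sum, was at 1049 to 1342 and 1412 to 1625 FPKM. The mesenchymal genes Col1a1, Col1a2, Col3a1 and Pdgfra, the immune genes Ptprc and Cd3e and the endothelial genes Pecam1, Cdh5 and Kdr were under 0.1 FPKM in every library. Other genes of these lists were measurable: Vim fell from 4.68 to 6.57 FPKM with vehicle to 1.23 to 2.12 FPKM with TGFB1, and Pdgfrb, below the filter and untested, was at 0.218 to 0.496 and 0.0309 to 0.0598 FPKM. Lyz2, a near copy of the Paneth gene Lyz1 whose reads may be shared, rose from 1.76 to 3.82 FPKM to 3.73 to 7.14 FPKM. Cd68 was at 4.18 to 6.15 and 5.52 to 7.95 FPKM and was not called. All 4 regenerative markers rose, from a summed 120 to 150 FPKM with vehicle to 4106 to 4956 FPKM with TGFB1, with Clu (78.6 to 3938 FPKM) at their head. All 3 enteroendocrine markers fell, from a summed 374 to 403 FPKM to 99.4 to 121 FPKM, and 3 of 4 goblet markers fell (1691 to 2019 FPKM against 1076 to 1158 FPKM). Of 4 Paneth markers 3 rose (2711 to 3484 FPKM against 4009 to 5197 FPKM). Stem and enterocyte markers went both ways, with falls of Lgr5 and Smoc2 and a rise of Olfm4, and with 3 of 7 enterocyte markers lower and 1 higher. Over all genes tested 32.3% rose and 31.6% fell, so calls in both directions are common in lists this short. The part of these cell types in the gained and lost regions was not tested.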

How the data were processed

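ATAC-seq peaks were deposited by the authors as 1 list per library, made with Picard, MACS2 at q 0.05 and blacklist subtraction per the file names. Every peak is 601 bp wide, and its score is the −log10 q value that the authors' peak caller gave. The submitters' processing notes name MACS2 2.1.0 and Picard 2.18.27. RNA values are FPKM deposited by the authors. The notes also name TopHat2 2.1.0, Cuffnorm 2.2.1 and Cuffdiff 2.2.1, without assigning them to an assay, and the read depth is unknown.

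Peaks of the 6 D11 lists were merged where they overlapped by at least 1 bp (Python 3.11.15, numpy 2.4.6, pandas 2.3.3). Regions on chromosome X were kept apart. Peak numbers and Jaccard indices were tested by exact permutation over libraries. RNA was fitted with limma 3.58.1 (limma-trend, robust, R 4.3.3) on log2(FPKM + 1) with genes averaging under 1 FPKM left out. Scripts were tested on simulated data. Named regions are the 8 of each kind with the highest lowest percentile, the group with the most regions of each kind and the 3 widest rank gaps per direction. Named genes are up to 5 per list with the smallest adjusted p, from which some are printed, and 8 fixed ones. The members and lists were chosen with earlier results of these data known. The difference between D11 and D7 in the effect on peak number, the tabulations by D7 pattern and the settings of the distance to shared regions were chosen after seeing the data. Links to genes, motifs and sequences were not analysed here, because no genome of the files' build was used. Same-numbered libraries did not deviate together (correlations of 0.000397, -0.0755 and -0.0733 over regions), so numbers were not taken as pairs.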

Additional observations from a re-analysis of the deposited data

Results flagged for a closer look

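Some regions moved in opposite directions on the 2 days, in every library of the groups. Of the regions lost on D11, 14 were gained in irradiated organoids on D7 (0.896%, against 0.817% of all D11 regions) and 15 in non-irradiated organoids on D7 (0.960%, against 1.43%). In the reverse case, 1 region gained on D11 was lost in irradiated organoids on D7 (0.148%, against 1.33%). These shares lie near or below those of all regions. These differences between days were not tested.

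On chromosome X, outside the chromosomes analysed, 14 of 1357 regions were gained (1.03%) and 23 were lost (1.69%).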

How the results depend on the processing

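With 2 of 3 libraries against none, 1830 regions were gained and 5397 lost. Lists reduced to one length gave 1110 gained regions. Leaving out 1 library eases the rule, since fewer lists must agree, and every such count rose. It gave 724 to 1178 gained and 1729 to 4828 lost regions. Gained regions rose most without TGFB1 replicate 1 (1178), TGFB1 replicate 3 (1117) and vehicle replicate 2 (1100), and lost regions without vehicle replicate 3 (4828) and TGFB1 replicate 2 (2733). Regions whose ranks were separated numbered 3157 to 3696 higher and 3205 to 3861 lower when 1 library was left out, which leaves fewer libraries to separate. Reducing every D7 list to its 19907 highest-scoring peaks, with the D11 regions as called, lowered the mean D7 shares of gained regions to 1.68% (IR vehicle), 0.445% (non-IR vehicle) and 5.93% (non-IR TGFB1), and those of lost regions to 17.1% (IR vehicle), 22.8% (non-IR vehicle) and 10.7% (non-IR TGFB1). The cause was not tested. With the replicate number as a block, the difference in peak number had an exact permutation p of 0.25, the smallest that 3 pairs allow. The Jaccard difference with same-numbered pairs left out was 0.0592, and limma with this block called 7351 genes instead of 7335. The effect on peak number on D11 less that on D7 was -5404 peaks for irradiated (permutation p = 0.46) and -11215 for non-irradiated organoids (permutation p = 0.095). The planned links from regions to genes were not run, since no annotation of the build was used. Of the named genes, Cdx2 alone lost its call under an alternative. Peak lists carry no depth, so a weak site below the authors' threshold in 1 library is not distinguishable from an absent one.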
